A study of Mus musculus with 16 samples.

Results

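The 10 genes described here encode feedback inhibitors of ERK signalling and the Etv transcription factors that ERK signalling induces: the phosphatases Dusp4 and Dusp6, the Sprouty proteins Spry1, Spry2 and Spry4, the Spred proteins Spred1 and Spred2, and Etv1, Etv4 and Etv5. They were taken by name, with earlier results of these data known. All 10 were found among the 57132 genes counted and passed the filter on low counts. mRNA was measured by RNA-seq in mouse neural stem cells under the growth condition the labels call GF, which the series describes as self-renewing. The study compared gRNA with control cells, 3 libraries of each in batch 2 and 3 of each in batch 1. The series names the agent given with the gRNA as TAPIR. The labels used here name no target of the guide RNA, no strain, sex or age, and no culture of origin for a library, so p-values measure the spread between these libraries, which may be technical. Libraries of each group are numbered in the order of deposition, 1 to 3 in batch 1 and 4 to 6 in batch 2. The numbers were not used to pair libraries, and whether any were paired is not given. Counts assigned to genes summed to 8414028 in the shallowest library and 19454390 in the deepest. Ribosome footprints of these genes were not analysed here, because the footprint table lists transcripts that no table used here pairs with genes and its library names match no label.

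ERK is the last kinase of a cascade that runs from growth factor receptors through Ras, Raf and MEK. Neural stem cells are commonly grown with FGF2 and EGF, whose receptors feed this cascade. ERK activity raises the transcription of its own inhibitors. Dusp6 removes the activating phosphates from ERK in the cytoplasm and Dusp4 does so in the nucleus. Sprouty proteins restrain signalling between the receptor and Raf, and Spred proteins bring the Ras inactivator neurofibromin to the membrane. Etv1, Etv4 and Etv5 are Ets transcription factors of the PEA3 family that act downstream of FGF signalling, and the repressor Capicua holds them low when ERK is inactive. For this reason mRNAs of these genes are widely used as a readout of ERK output.

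All 8 neural stem cell markers passed the low-count filter, and their summed level was 1329.7 to 1438 CPM (counts scaled to the TMM-adjusted library size) in gRNA and 1396 to 1669 CPM in control libraries of batch 2, and 1435 to 1978 CPM and 1513 to 2222 CPM in those of batch 1. One library stood apart from its batch. Control library 6 had a mean correlation of log2 levels of 0.981 with the rest of batch 2, against 0.988 for gRNA library 6 and 0.991 to 0.993 for every other library with its own batch. Its depth, 13854672 counts in genes, lay within the range of the others. Reads that the counting step assigned to no feature made up 11.3% of its counted reads, against 8.83% to 12.7% in the other libraries of batch 2. The 5 astrocyte markers summed to 206 CPM in control library 6, 115 CPM in gRNA library 6 and 42.6 to 65.2 CPM in the other 4 libraries of batch 2, and all 5 were at least 2-fold higher in control library 6 than the mean of the rest. The 5 oligodendrocyte markers summed to 261 CPM in control library 6, against 125 to 141 CPM in the other 5; most of that sum was Cnp, at 229 CPM, and the defining markers Sox10 and Mog were under 1 CPM in each library of batch 2. The 2 fibroblast and mural markers above the low-count filter and their 4 fellows summed to 18.9 CPM in control library 6, against 2.12 to 5.86 CPM in the rest of batch 2. In batch 2, microglial and endothelial markers summed to under 3 and under 8 CPM in every library. Tests on the 10 genes that include control library 6 are also given without it.

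The level of each gene in each library is shown first, by role. Dusp4 had 66.9, 51.9 and 73.9 CPM in gRNA libraries 4, 5 and 6, against 61.1, 55.1 and 12.2 CPM in control libraries 4, 5 and 6, all of batch 2. In batch 1 it had 103, 87.7 and 102 CPM in gRNA libraries 1, 2 and 3, against 96.1, 116 and 115 CPM in control libraries 1, 2 and 3. Every batch 2 library thus lay below every batch 1 library for this nuclear phosphatase, and control library 6 was the lowest of all. Dusp6 had 235, 244 and 230.4 CPM in gRNA and 284, 252 and 49.7 CPM in control libraries of batch 2, in the same library order. In batch 1 it had 326, 235 and 251 CPM in gRNA and 276, 417 and 232 CPM in control libraries. The gRNA and control ranges of this cytoplasmic phosphatase overlapped in both batches, with control library 6 far below and control library 2 above every other library.

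Among the Sprouty genes, Spry4 had 364, 359 and 301 CPM in gRNA libraries 4, 5 and 6 and 414, 371 and 40.6 CPM in control libraries 4, 5 and 6. In batch 1 it had 346, 298 and 347 CPM in gRNA and 344, 464 and 340.4 CPM in control libraries. Outside control library 6, its levels in the batches covered much the same range. Spry1 had 144, 146 and 142 CPM in gRNA and 169.6, 148 and 39.6 CPM in control libraries of batch 2. Its batch 1 levels were 167, 136 and 143 CPM in gRNA and 155, 216 and 136 CPM in control libraries. The 3 gRNA libraries of batch 2 were close together for Spry1, at 144 ± 2.31 CPM, whereas the control libraries there were at 119 ± 69.5 CPM (SD, n = 3 each). Without control library 6 the remaining 2 control libraries of batch 2 averaged 159 CPM of Spry1, above the gRNA mean. Spry2 was at 170.1 ± 13.2 CPM in gRNA and 155 ± 42.8 CPM in control libraries of batch 2 and in batch 1 the means were 175 ± 26.7 CPM for gRNA and 198 ± 59.0 CPM for control libraries (SD, n = 3 each). Its value in control library 6, 109 CPM, was again the lowest of the 12, and without it the control mean of batch 2 was 179 CPM, above the gRNA mean.

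The Spred genes varied less between libraries. Spred1 had 292, 285 and 309.6 CPM in gRNA and 319, 296 and 223 CPM in control libraries of batch 2. In batch 1, Spred1 had 336, 297 and 349.8 CPM in gRNA and 336, 408 and 335 CPM in control libraries. Control library 6 was the lowest and control library 2 the highest of the 12. Spred2 had 152, 150.4 and 167 CPM in gRNA and 156, 161 and 118 CPM in control libraries of batch 2. In batch 1, Spred2 had 202, 182 and 203 CPM in gRNA and 189, 215 and 204 CPM in control libraries. For Spred2 the highest library of batch 2, gRNA library 6 at 167 CPM, lay below the lowest of batch 1 at 182 CPM.

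The 3 Etv factors differed from one another in how far their libraries spread. Etv1 had 215, 218 and 223 CPM in gRNA libraries 4, 5 and 6 and 224, 221 and 225 CPM in control libraries 4, 5 and 6. In batch 1 it had 259.8, 242 and 273 CPM in gRNA and 250.4, 294 and 263 CPM in control libraries. All 6 libraries of batch 2, control library 6 among them, fell within a narrow band below batch 1. Etv5 had 303, 313 and 332 CPM in gRNA and 364, 318 and 302 CPM in control libraries of batch 2. Its batch 1 levels were 348, 269 and 313 CPM in gRNA and 308, 471 and 291 CPM in control libraries, and the ranges of the 4 groups overlapped. Etv4 had 112, 104 and 122 CPM in gRNA and 120.0, 104 and 55.0 CPM in control libraries of batch 2, and 131, 125 and 106 CPM in gRNA and 127, 164 and 114 CPM in control libraries of batch 1. Its lowest value was that of control library 6 and its highest that of control library 2.

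**Figure D1:**
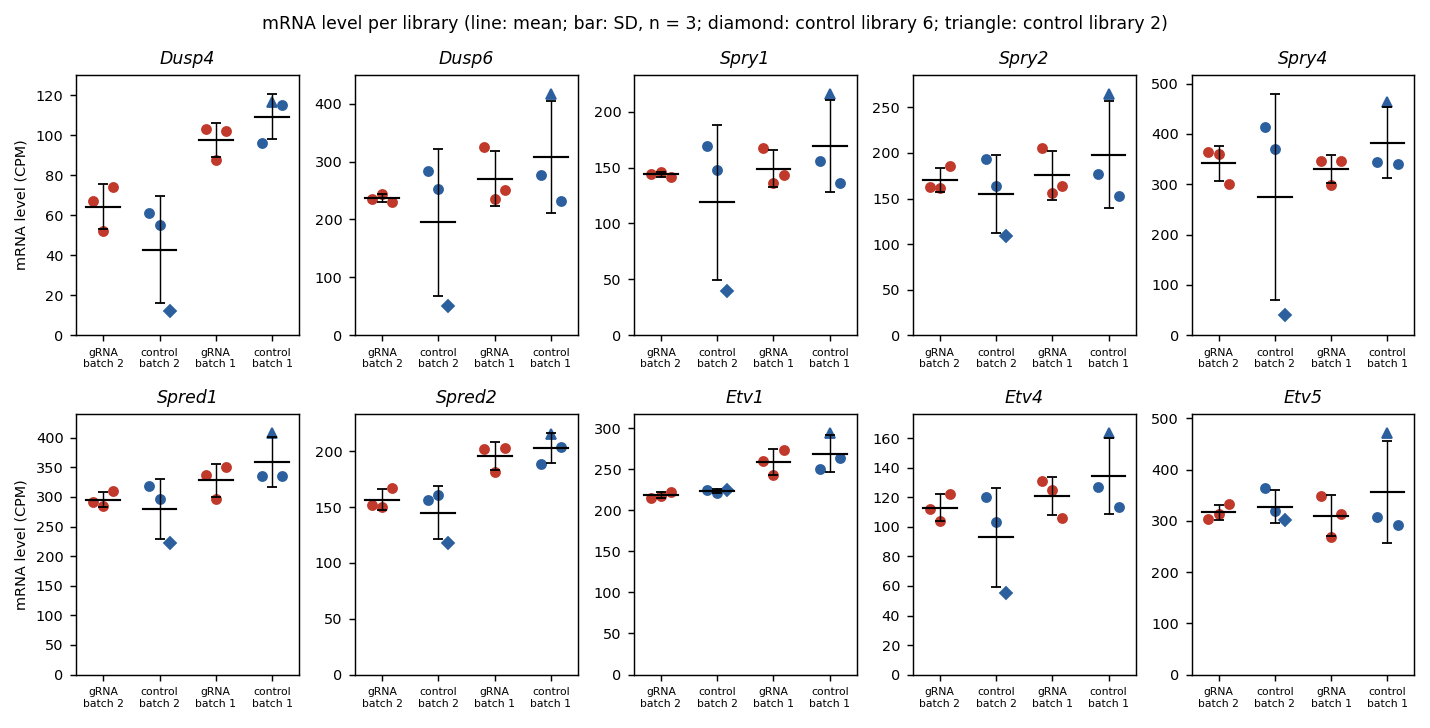
mRNA level in CPM (vertical axis, linear, from 0) of the 10 genes in each of the 12 libraries, by treatment and batch; lines are means and bars SDs of 3 libraries, the diamond is control library 6 and the triangle control library 2. The diamond lies far below the other libraries of batch 2 for Spry4 (40.6 CPM), Dusp6, Dusp4 and Spry1, and among them for Etv1.

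Within batch 2, control library 6 split the 10 genes. It held 11.2% of the mean Spry4 level of the other 5 libraries, 19.8% for Dusp4, 20.0% for Dusp6, 26.4% for Spry1 and 49.0% for Etv4. Spry2 was at 62.9%, and Spred1 and Spred2 were at 74.1% and 75.03%. Etv5, at 92.5%, and Etv1, at 102%, stood near the level of the rest. Of the 10 genes, 5 were at least 2-fold lower in this library than the mean of the other 5, where 2.55% of the 17704 genes above the low-count filter were (3.53% were 2-fold higher). It was the lowest of its batch for 9 of the 10, against 28.2% of all genes, the exception being Etv1. Spry4 ranked 3 from the bottom of the 17704 genes by this ratio, Dusp6 14, Dusp4 18, Spry1 42 and Etv4 423. This is a description of 1 library with no replicate check, and the genes were chosen with earlier results of these data known. The same library had the higher astrocyte, oligodendrocyte and fibroblast marker sums given above. Its neural stem cell and neuron marker sums were also the highest of batch 2, at 1669 and 773 CPM. The other 5 libraries had 1330 to 1520 CPM and 615 to 708 CPM. The part of all these sums in the values of the 10 genes was not tested. In bulk RNA, fewer cells that express a gene and less of its mRNA per cell cannot be told apart.

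Control library 2, of batch 1, lay at the other end. It was the highest of its batch for all 10 genes, against 22.7% of all genes. The differences were smaller, from 1.099-fold over the mean of the other 5 libraries of batch 1 for Spred2 to 1.58-fold for Dusp6, with Etv5 at 1.54-fold and Spry2 at 1.55-fold. The library was the shallowest, with 8414028 counts in genes. Reads assigned to no feature made up 19.0% of its counted reads, against 20.6% to 25.1% in the rest of batch 1. Its neural stem cell, neuron, and fibroblast and mural markers summed to 2222, 957 and 167 CPM, each the highest of the 12 libraries. Other sums were not raised. Its astrocyte, oligodendrocyte and microglial sums, at 448, 88.8 and 3.05 CPM, lay within the batch 1 range. The endothelial sum, 5.44 CPM, was the lowest of batch 1. The part of depth and of these sums in the result was not tested. Etv5 was thus among the genes farthest above its batch in control library 2, and near its batch in control library 6.

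**Figure D2:**
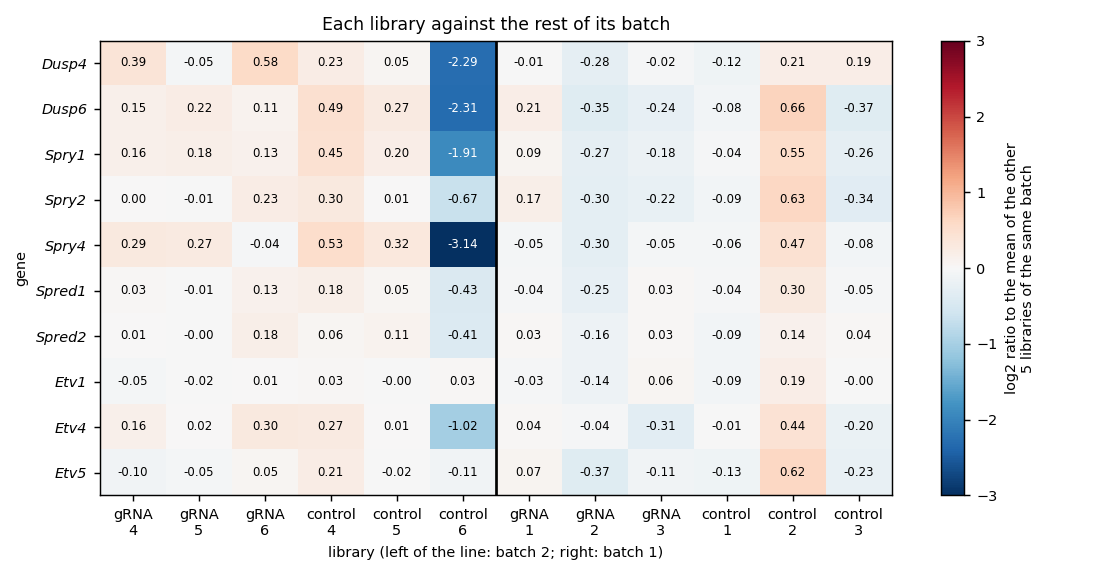
Log2 ratio of each library to the mean of the other 5 libraries of its batch (colour and printed value) for the 10 genes (rows) and the 12 libraries (columns). Control library 6 runs from −3.14 for Spry4 to 0.030 for Etv1, and control library 2 is above 0 for all 10.

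RefSeq promoter windows were used for 7 of the 10 genes (build GRCm38.p6), and none was at hand for Dusp4 and Etv4. Windows on the chromosome that holds Spry4 were left out for these genes, so none is given for Spry4. The 250 bases before the first listed start are shown for Dusp6 and Spry1, which were far lower in control library 6, for Etv1 and Etv5, which were not, and for Spred2, which was lower in batch 2. Capitals mark matches, on either strand, to the GC box GGGCGG, the CRE core TGACGT, the Ets core CCGGAA, the AP-1 site TGANTCA or the Capicua site TGAATGNA, which do not overlap here. The windows lie at chr10:99262981-99263230, plus strand, for Dusp6, chr3:37639697-37639946, plus strand, for Spry1, chr11:19924192-19924441, plus strand, for Spred2, chr12:38779832-38780081, plus strand, for Etv1 and chr16:22439571-22439820, minus strand, for Etv5.
Dusp6: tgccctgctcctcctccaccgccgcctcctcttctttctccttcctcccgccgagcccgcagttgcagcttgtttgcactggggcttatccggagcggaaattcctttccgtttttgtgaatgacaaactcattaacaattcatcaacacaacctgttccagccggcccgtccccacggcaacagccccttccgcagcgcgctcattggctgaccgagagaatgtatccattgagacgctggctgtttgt
Spry1: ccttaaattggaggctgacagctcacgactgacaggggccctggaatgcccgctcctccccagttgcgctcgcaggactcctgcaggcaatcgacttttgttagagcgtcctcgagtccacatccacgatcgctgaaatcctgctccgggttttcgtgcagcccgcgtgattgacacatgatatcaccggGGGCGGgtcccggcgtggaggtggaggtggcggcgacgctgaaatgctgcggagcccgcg
Spred2: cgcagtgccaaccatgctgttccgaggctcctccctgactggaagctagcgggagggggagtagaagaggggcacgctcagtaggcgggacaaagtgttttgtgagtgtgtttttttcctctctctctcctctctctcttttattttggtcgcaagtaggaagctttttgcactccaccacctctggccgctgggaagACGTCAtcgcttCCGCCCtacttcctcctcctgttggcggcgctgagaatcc
Etv1: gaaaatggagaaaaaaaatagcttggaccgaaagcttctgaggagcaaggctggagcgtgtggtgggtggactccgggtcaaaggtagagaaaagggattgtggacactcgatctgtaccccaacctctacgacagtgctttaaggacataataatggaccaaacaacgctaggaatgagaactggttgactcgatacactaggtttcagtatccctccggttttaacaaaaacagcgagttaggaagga
Etv5: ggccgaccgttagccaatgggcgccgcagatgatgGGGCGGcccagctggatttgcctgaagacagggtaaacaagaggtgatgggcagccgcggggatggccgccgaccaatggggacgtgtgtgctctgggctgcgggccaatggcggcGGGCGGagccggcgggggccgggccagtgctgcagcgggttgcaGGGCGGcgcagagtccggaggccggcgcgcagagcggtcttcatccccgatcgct
GC boxes stood at 1 place for Spry1, 1 for Spred2 and 3 for Etv5, and 32.74% of all 32851 windows of this length held one. Spred2 held the CRE core, which 6.469% of all windows did. None of the 5 windows held the Ets core, the AP-1 site or the Capicua site (12.03%, 6.749% and 3.202% of all windows), and in the windows of Dusp6 and Etv1 none of the 5 motifs was found. The GC content of the windows was 56.4% for Dusp6, 62.4% for Spry1, 56.0% for Spred2, 46.4% for Etv1 and 71.2% for Etv5. A match is a run of letters in this window and says nothing of a factor bound there.

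None of the 10 genes passed the test between gRNA and control libraries. Over both batches, the log2 fold changes (gRNA over control, n = 6 each, batch as a term) ran from −0.13 for Etv5 to 0.20 for Dusp4, 6 above and 4 below 0, with a median of 0.037 beside −0.0074 over all genes tested. By edgeR's quasi-likelihood test with Benjamini-Hochberg adjustment, 0 of 17704 genes (0%) passed an adjusted p of 0.05, and each of the 10 had an adjusted p of 0.9998. At an unadjusted p under 0.05 stood 230 genes and 0 of the 10, and DESeq2 and limma-voom called 0 genes each, with 216 and 232 at an unadjusted p under 0.05. The widest intervals were those of Spry4, 0.051 (SE 0.36, 95% interval −0.73 to 0.83), and Dusp6, 0.045 (SE 0.30, 95% interval −0.60 to 0.69). Etv1, −0.044 (SE 0.060, 95% interval −0.17 to 0.084), and Spred2, 0.029 (SE 0.083, 95% interval −0.15 to 0.21), had the narrowest. The others lay at 0.20 (SE 0.28) for Dusp4, 0.046 (SE 0.25) for Spry1, −0.022 (SE 0.15) for Spry2, −0.026 (SE 0.095) for Spred1, 0.063 (SE 0.16) for Etv4 and −0.13 (SE 0.11) for Etv5. All 10 intervals excluded a 2-fold change in either direction.

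Without control library 6, all 10 values over both batches were at or below −0.029, with a median of −0.11 beside 0.0031 over all genes, and the intervals of the Dusp and Sprouty genes narrowed. Spry4 was then at −0.20 (SE 0.093, 95% interval −0.41 to −0.0042), with an unadjusted edgeR p of 0.0460 and an adjusted p of 0.9999. The values were −0.029 (SE 0.10) for Dusp4, −0.18 (SE 0.13) for Dusp6, −0.16 (SE 0.10) for Spry1 and −0.13 (SE 0.13) for Spry2. They were −0.098 (SE 0.073) for Spred1, −0.036 (SE 0.061) for Spred2, −0.042 (SE 0.061) for Etv1, −0.078 (SE 0.097) for Etv4 and −0.16 (SE 0.12) for Etv5. Leaving out control library 2 instead moved the median to 0.12, with 8 of the 10 above 0. No gene of the 10 passed in edgeR in either case, nor did any of the 18354 and 18375 genes then tested (0% each), of which 231 and 194 had an unadjusted p under 0.05. For 8 of the 10 genes, the direction between gRNA and control over both batches turned when 1 of these 2 control libraries was left out; Etv1 and Etv5 were below 0 in all 3 fits.

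Within batch 1, all 10 genes were below 0 in gRNA libraries, from −0.20 for Spry4 to −0.044 for Spred2, with a median of −0.16 beside −0.0045 for all genes, and none passed (0 of 16988 genes, 0%, with 147 at an unadjusted p under 0.05 in edgeR, 57 in DESeq2 and 157 in limma-voom). The phosphatases and Sprouty genes lay at −0.16 (SE 0.11) for Dusp4, −0.18 (SE 0.22) for Dusp6, −0.18 (SE 0.17) for Spry1, −0.17 (SE 0.20) for Spry2 and −0.20 (SE 0.14) for Spry4. The Spred and Etv genes lay at −0.12 (SE 0.12) for Spred1, −0.044 (SE 0.098) for Spred2, −0.050 (SE 0.11) for Etv1, −0.15 (SE 0.14) for Etv4 and −0.19 (SE 0.19) for Etv5. Without control library 2 the batch 1 median was 0.012, with 6 of the 10 above 0. Within batch 2, 8 of the 10 were above 0, with Dusp4 at 0.58 (SE 0.50, 95% interval −0.58 to 1.74) and Spry4 at 0.31 (SE 0.67, 95% interval −1.24 to 1.86), and none passed (0 of 15647 genes, 0%, with 116 at an unadjusted p under 0.05 in edgeR, 119 in DESeq2 and 104 in limma-voom). The others there were at 0.28 (SE 0.52) for Dusp6, 0.28 (SE 0.45) for Spry1, 0.13 (SE 0.20) for Spry2, 0.086 (SE 0.14) for Spred1, 0.11 (SE 0.14) for Spred2, −0.022 (SE 0.069) for Etv1, 0.28 (SE 0.26) for Etv4 and −0.043 (SE 0.094) for Etv5. Without control library 6, 8 of the 10 in batch 2 were below 0, at −0.19 (SE 0.078) for Dusp6, −0.15 (SE 0.080) for Spry1, −0.079 (SE 0.092) for Spry2, −0.21 (SE 0.11) for Spry4, −0.067 (SE 0.069) for Spred1, −0.028 (SE 0.071) for Spred2, −0.034 (SE 0.064) for Etv1 and −0.12 (SE 0.079) for Etv5. Above 0 were 0.14 (SE 0.14) for Dusp4 and 0.0054 (SE 0.091) for Etv4. None passed in edgeR (0 of 16196 genes, 0%, with 92 at an unadjusted p under 0.05), and Dusp6 had an unadjusted p of 0.0448. For 3 of the 10, Dusp6, Spry1 and Spry4, each gRNA library of batch 2 then lay below the remaining 2 control libraries, as for 4.4% of all genes.

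The gRNA effect was compared between batches by an interaction term. The difference (batch 2 minus batch 1) was above 0 for all 10 genes, from 0.027 for Etv1 to 0.75 (SE 0.54) for Dusp4, and none passed in edgeR (0 of 18279 genes, 0%, with 236 at an unadjusted p under 0.05; DESeq2 and limma-voom called 0, with 180 and 213). The others were 0.46 (SE 0.61) for Dusp6, 0.46 (SE 0.51) for Spry1, 0.31 (SE 0.31) for Spry2, 0.52 (SE 0.73) for Spry4, 0.21 (SE 0.19) for Spred1, 0.16 (SE 0.17) for Spred2, 0.44 (SE 0.32) for Etv4 and 0.15 (SE 0.23) for Etv5. Without control library 6 the 10 differences were smaller apart from that of Etv1, at 0.31 (SE 0.20) for Dusp4, 0.0067 (SE 0.27) for Dusp6, 0.044 (SE 0.22) for Spry1, 0.10 (SE 0.26) for Spry2 and 0.010 (SE 0.20) for Spry4, and 0.073 (SE 0.16) for Spred1, 0.032 (SE 0.13) for Spred2, 0.032 (SE 0.13) for Etv1, 0.17 (SE 0.20) for Etv4 and 0.094 (SE 0.24) for Etv5. Without control library 2 the median was 0.17, against 0.37 with all libraries, and 8 were above 0, the exceptions being Etv1 at −0.020 and Etv5 at −0.077.

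**Figure D3:**
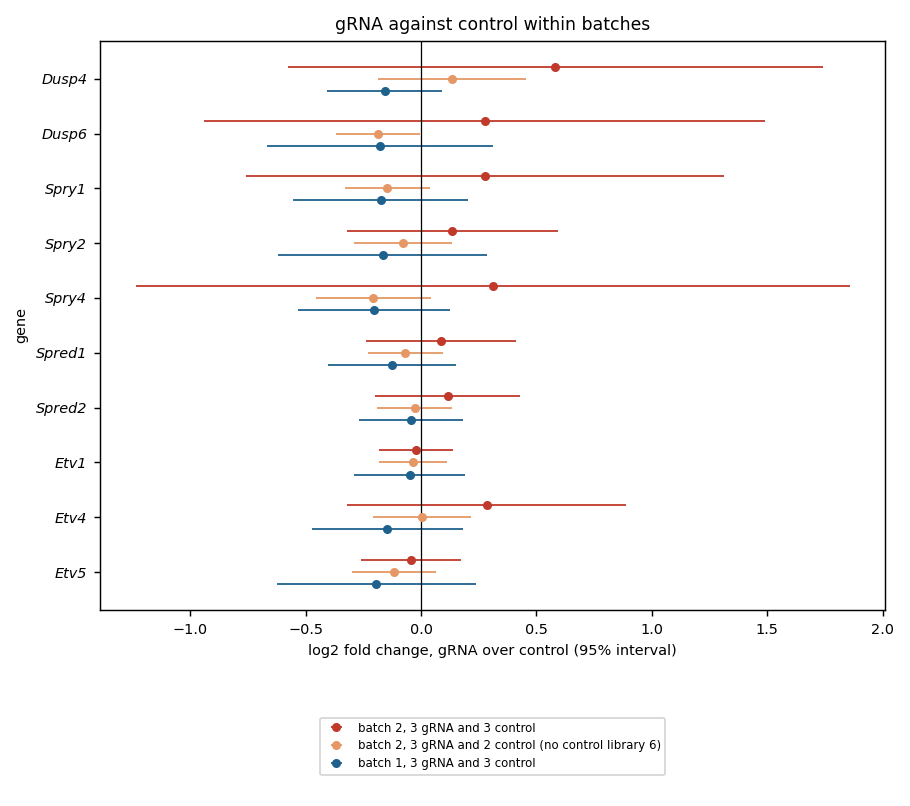
Log2 fold change of gRNA over control (horizontal axis) with 95% intervals from edgeR for the 10 genes, in batch 2 with all libraries, in batch 2 without control library 6, and in batch 1. The batch 2 values of Dusp6, Spry1 and Spry4 are above 0 with control library 6 and below 0 without it, as 0.31 and −0.21 for Spry4.

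Batch 2 differed from batch 1 in 4 of the 10 genes, all lower in batch 2: Dusp4, Spred1, Spred2 and Etv1. Of the 17704 genes tested, 33.1% were called lower and 28.4% higher (61.4% in all), so 4 of 10 called lower is close to the share among all genes. Dusp4 averaged 53.5 ± 21.7 CPM in batch 2 and 103 ± 11.1 CPM in batch 1 (SD, n = 6 each), a log2 fold change (batch 2 over batch 1, with treatment as a term) of −0.97 (SE 0.28, 95% interval −1.58 to −0.37) with an edgeR adjusted p of 0.00813. Spred2 averaged 151 ± 17.2 CPM in batch 2 and 199 ± 12.2 CPM in batch 1, a change of −0.40 (SE 0.083) with an edgeR adjusted p of 0.000717. Etv1 averaged 221 ± 3.91 CPM in batch 2 and 264 ± 18.2 CPM in batch 1, a change of −0.26 (SE 0.060) with an edgeR adjusted p of 0.00189. For these 3 genes the ranges of the batches did not overlap, as for 41.6% of all genes. Spred1 was at −0.26 (SE 0.095) with an edgeR adjusted p of 0.0306.

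The other 6 genes did not pass between batches. They lay at −0.43 (SE 0.30) for Dusp6, −0.31 (SE 0.16) for Etv4, −0.28 (SE 0.26) for Spry1, −0.21 (SE 0.36) for Spry4, −0.19 (SE 0.15) for Spry2 and −0.045 (SE 0.11) for Etv5. The same 4 genes were called without control library 6, where 35.7% of the 18354 genes then tested were called lower. Dusp4 was then at −0.73 (SE 0.10) with an edgeR adjusted p of 2.70e-05, and Spred1 at −0.18 (SE 0.074) with an edgeR adjusted p of 0.0461. Spry4 was then at 0.047 (SE 0.093), Spry1 at −0.062 (SE 0.10) and Dusp6 at −0.19 (SE 0.13). The rest lay at −0.084 (SE 0.13) for Spry2, −0.33 (SE 0.061) for Spred2, −0.25 (SE 0.061) for Etv1, −0.17 (SE 0.098) for Etv4 and −0.0072 (SE 0.12) for Etv5. The Spred1 call ended without control library 2, where it was −0.18 with an edgeR adjusted p of 0.108, and without gRNA library 3 (adjusted p = 0.0565), gRNA library 5 (adjusted p = 0.0568) or control library 3 (adjusted p = 0.0644). Against a minimum fold of 1.5, no gene of the 10 passed and Dusp4 had an edgeR adjusted p of 0.0926. Some marker sums of other cells moved with batch. The astrocyte sum was 43.2 to 115 CPM in gRNA and 42.6 to 206 CPM in control libraries of batch 2. In batch 1 it was 269 to 484 CPM in gRNA and 267 to 467 CPM in control libraries. The fibroblast and mural sum reached at most 18.9 CPM in batch 2 and was 60.7 to 167 CPM in batch 1. The microglial sum, with 2 of its 5 markers above the low-count filter, was 0.728 to 2.41 CPM in batch 2 and 3.02 to 6.63 CPM in batch 1. The oligodendrocyte sum went the other way, at 125 to 261 CPM in batch 2 and 84.5 to 94.7 CPM in batch 1. Cnp made up most of it in control library 6, as given above. The neuron sum overlapped between batches, at 615 to 773 CPM in batch 2 and 646 to 957 CPM in batch 1. So did the endothelial sum, at 3.82 to 7.43 CPM in batch 2 and 5.44 to 10.4 CPM in batch 1. The part of these marker sums in the differences was not tested. What the batch label stands for is not given in the labels, so any factor that differed between the batches cannot be told apart from it.

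**Figure D4:**
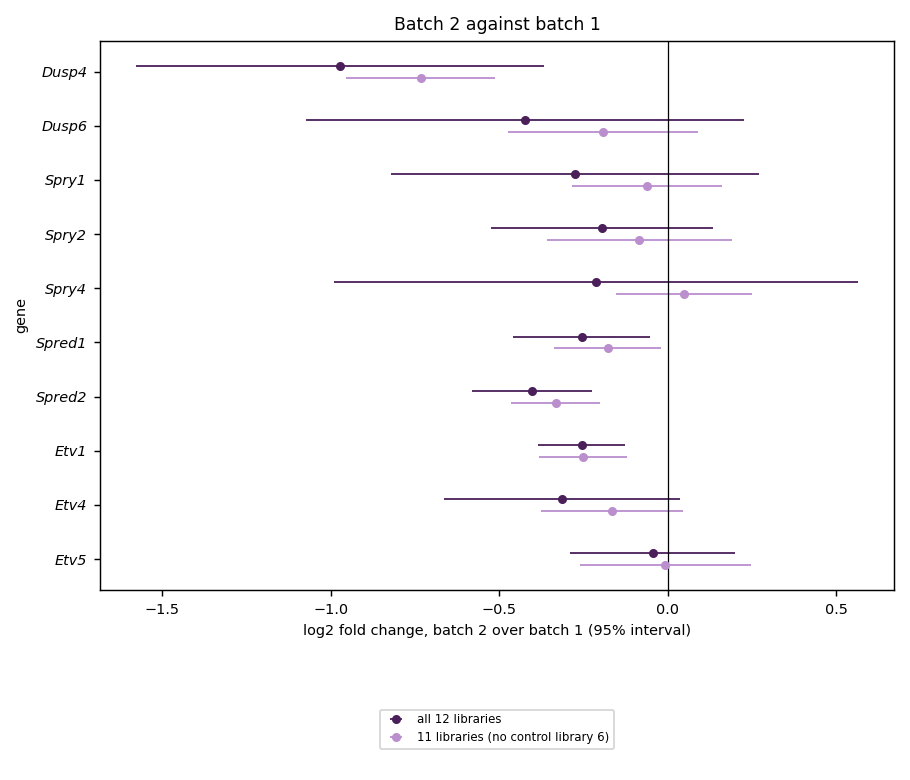
Log2 fold change of batch 2 over batch 1 (horizontal axis) with 95% intervals from edgeR for the 10 genes, with all 12 libraries and without control library 6. Dusp4 stands farthest below 0, at −0.97 and −0.73, and Etv5 lies at −0.045 and −0.0072.

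Other genes of the pathway were described by list. Between gRNA and control libraries over both batches, 0 members of the 7 lists passed in edgeR, and list medians were −0.0093 for 8 other MAPK phosphatases, −0.11 for 15 other negative regulators of receptor kinases, Ras and Raf, −0.049 for 25 members of the Ras-ERK cascade, −0.10 for 12 receptor kinases, 0.11 for 11 receptor ligands, −0.13 for 16 other ERK-responsive transcripts and −0.017 for 18 other Ets factors and regulators of Etv. Without control library 6 the medians were −0.0012 for the receptor kinases, −0.030 for the negative regulators, −0.020 for the cascade and −0.032 for the other phosphatases. They were 0.089 for the ligands, −0.14 for the other ERK-responsive transcripts and 0.032 for the Ets list, beside 0.0031 for all genes. Within their own lists, the kinase Mknk2 at −0.14 (SE 0.077) and the receptor Egfr at −0.21 (SE 0.11) were among the 4 genes with the smallest p. The immediate early factors Fos, at −0.51 (SE 0.19), and Fosb, at −1.11 (SE 0.42), had the lowest values among the ERK-responsive transcripts, and neither passed; Fosb was at 128 CPM in control library 6, against 12.2 to 45.7 CPM in the other 5 libraries of batch 2. The repressor Capicua, encoded by Cic, was at −0.10 (SE 0.083).

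Between batches, the Ras-ERK cascade had 7 of 25 called higher and 8 called lower in batch 2, beside 28.4% and 33.1% of all genes. Mapk3, which encodes ERK1, was at 0.69 (SE 0.084) and the small GTPase Nras at −0.56 (SE 0.077). The other MAPK phosphatases had 2 of 8 called higher and 4 called lower. Dusp2 was at 3.21 (SE 0.29) and Dusp5 at 1.34 (SE 0.17), both nuclear ERK phosphatases. Dusp7 was at −1.43 (SE 0.12) and Dusp9 at −6.83 (SE 0.68). Receptor kinases had 4 of 12 called higher and 6 called lower. Egfr was at −0.72 (SE 0.11), Fgfr2 at −1.83 (SE 0.16), Met at −4.41 (SE 0.52) and Erbb2 at 0.83 (SE 0.14). The ligands had 3 of 11 called higher and 4 called lower, with Hbegf at −1.21 (SE 0.21) and Tgfa, another ligand of the EGF receptor, at 1.88 (SE 0.24). ERK-responsive transcripts had 6 of 16 called higher and 3 called lower, with the early response genes Ier3 at −5.93 (SE 0.14) and Ier2 at 1.28 (SE 0.16), so these 2 early response genes went in opposite directions; Ier3 averaged 0.484 CPM in batch 2 and 29.9 CPM in batch 1. The Ets list had 5 of 18 called higher and 6 called lower, with the ternary complex factors Elk3 at −1.36 (SE 0.11) and Elk4 at −1.59 (SE 0.070).

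In control library 6, the same lists spread on both sides of the other libraries of batch 2. At least 2-fold lower were 0 of the 25 cascade genes, 0 of the 15 negative regulators, 0 of the 12 receptor kinases, 0 of the 18 Ets genes, 1 of the 8 other phosphatases, 2 of the 11 ligands and 4 of the 16 ERK-responsive transcripts, where 2.55% of all genes were. At least 2-fold higher were 3 receptor kinases, 3 ERK-responsive transcripts and 2 Ets genes, where 3.53% of all genes were. In lists of this size, a count of 0 is close to those shares. The median log2 ratio was 0.077 for the cascade and 0.49 for the receptor kinases, against −0.85 for the 10 feedback and Etv genes and 0.018 for all genes. Mapk3 was at 125 CPM in control library 6, against 108 to 125 CPM in the other 5 libraries of batch 2. The following genes were chosen after their values were seen. Epha2, an Eph receptor induced by ERK signalling, was at 4.08 CPM in control library 6, against 18.3 to 23.7 CPM in the other 5 libraries of batch 2. The growth regulator Myc was at 55.8 CPM in control library 6, against 137 to 164 CPM in the other 5 libraries of batch 2, and Fgf1, a ligand of FGF receptors, at 16.5 CPM in control library 6, against 45.8 to 66.0 CPM in the other 5 libraries of batch 2. Fosb, with the values above, went the other way, and so did the receptor Pdgfra, at 106 CPM in control library 6, against 28.7 to 47.4 CPM in the other 5 libraries of batch 2.

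**Figure D5:**
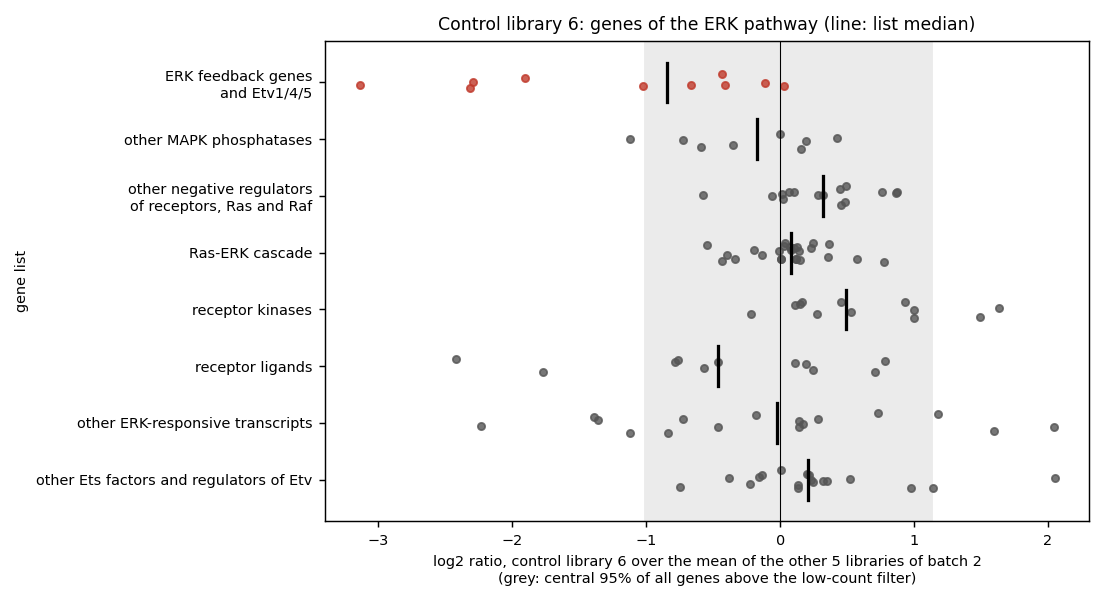
Log2 ratio of control library 6 to the mean of the other 5 libraries of batch 2 (horizontal axis) for the genes of each list above the low-count filter (points; rows are lists; lines are list medians), with the central 95% of all genes in grey (−1.01 to 1.13). Of the 10 feedback and Etv genes, 5 lie at or below −1, and the Ras-ERK cascade lies within the grey band.

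Profiles over the 12 libraries were compared by the root mean square difference of log2 levels, each centred on its own mean. The measure was taken against 11395 genes averaging 50 counts or more. The 2 nearest genes to Spry4 were Dusp6 (0.254) and Spry1 (0.340), and Dusp6 and Spry1 were 0.153 apart. For Dusp6 the second was Cdr2 (0.219), which was also nearest to Spry1 (0.137). Dusp4 lay nearest to Prr5 (0.191) and Adm (0.222), and Etv4 to Chst7 (0.087) and Nup35 (0.110). Spry2 lay nearest to Golph3 and Nme1, Spred1 to Atp13a3 and Pafah1b2, Spred2 to Timm17a and Rybp, Etv1 to Smap2 and Tead1, and Etv5 to Psat1 and Rad23b, at 0.036 to 0.073. Over the 11 libraries without control library 6, an alternative added after the data were seen, Spry4 lay nearest to Trp53i11 and Med10, and Spry1 ranked 12 among its neighbours. For Dusp6, Spry1 was then at rank 39. In those 11 libraries, Spry4, Dusp6 and Spry1 were thus not among each other's 2 nearest genes. Spred1 kept Atp13a3 and Pafah1b2 as its nearest genes in both cases.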

How the data were processed

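Stranded libraries were made from total RNA after ribosomal RNA depletion, per the labels' protocols. The submitters' processing notes name GRCm39 as the build and HTSeq, STAR, Trimmomatic and SAMtools as tools. Their versions, the annotation and the strand setting were not given, so overlapping and antisense genes may share reads. Each deposited RNA-seq file holds whole counts for Ensembl genes, not normalized by the authors. The 5 summary lines of HTSeq did not enter library sizes or tests. Symbols were matched to 90.8% of 57132 gene identifiers. The footprint table was not used.

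Tests used edgeR 4.0.16 under R 4.3.3 (filterByExpr with a minimum count of 10, TMM, quasi-likelihood test, Benjamini-Hochberg adjustment over all genes tested, threshold 0.05) and the steps were tested on simulated data. Levels are CPM on TMM-scaled library sizes; they are not divided by gene length, so no levels are compared between genes. Alternatives were DESeq2 1.42.0, limma-voom (limma 3.58.1), other scaling and filters, a minimum fold of 1.5, no batch term and leaving out libraries. Each gene of the 10 was named in every comparison; of the lists, up to 4 genes with the smallest p. The genes and lists were chosen with earlier results of these data known. Ratios to a batch used an added 0.5 CPM. No 2 of the 66 pairs of libraries held identical counts. Promoter windows came from RefSeq. Figures used Python 3.11.15 and matplotlib 3.10.9.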

Additional observations from a re-analysis of the deposited data

Results flagged for a closer look

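Each group of 6 libraries, gRNA or control over both batches, was screened for a library far from the others in each of the 10 genes. Of 20 such groups 3 held one, where chance gives about 1 in 20 for groups independent of one another. The 10 genes share the same libraries, and each group pools both batches, so 3 of 20 cannot be set against that share. Dusp6 stood at 326 CPM in gRNA library 1, and the gap to the next library was 0.78 of the range of the gRNA group. Spry1 stood at 167 CPM in the same library, with a gap of 0.681 of the range. Spry4 stood at 40.6 CPM in control library 6, with a gap of 0.709 of the range of the control group. The critical share for 6 libraries is 0.625.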

How the results depend on the processing

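Of 760 values of single genes under alternatives, 693 kept direction and call, 52 turned, 13 lost and 2 gained a call. No turned value had passed, and the cause was not tested. The 4 gRNA comparisons kept 0 calls among the 10 genes under every alternative; without a low-count filter 1 gene passed over both batches, 1 in batch 1 and 42 for the difference between batches, none of the 10. Leaving out 1 library at a time, log2 fold changes that turned ranged as follows. Over both batches: Dusp4 −0.029 to 0.30, Dusp6 −0.18 to 0.18, Spry1 −0.16 to 0.17, Spry2 −0.13 to 0.10, Spry4 −0.20 to 0.20, Spred1 −0.098 to 0.026, Spred2 −0.036 to 0.061 and Etv4 −0.078 to 0.15. In batch 1: Dusp6 −0.34 to 0.094, Spry1 −0.31 to 0.031, Spry2 −0.32 to 0.092, Spred2 −0.094 to 0.012, Etv1 −0.10 to 0.014, Etv4 −0.25 to 0.010 and Etv5 −0.32 to 0.052. In batch 2: Dusp6 −0.19 to 0.64, Spry1 −0.15 to 0.61, Spry2 −0.079 to 0.32, Spry4 −0.21 to 0.72, Spred1 −0.067 to 0.19, Spred2 −0.028 to 0.21 and Etv5 −0.12 to 0.037. For the difference between batches: Etv1 −0.020 to 0.078 and Etv5 −0.077 to 0.25. For batch 2 against batch 1: Spry4 −0.35 to 0.047 and Etv5 −0.096 to 0.099. With gRNA library 6 and control library 6 both left out, these turned over both batches: Dusp4 −0.086, Dusp6 −0.18, Spry1 −0.16, Spry4 −0.17, Spred2 −0.058 and Etv4 −0.11. In batch 2: Dusp6 −0.17, Spry1 −0.13, Spry2 −0.14, Spry4 −0.12, Spred1 −0.10, Spred2 −0.078 and Etv4 −0.052. For the difference: Spred2 −0.022; for batch 2 against batch 1: Spry4 0.091. Spry2 was 0.015 over both batches in limma-voom. Between batches, Etv5 was 0.0099 without a low-count filter, where Dusp6 and Etv4 passed (−0.36 and −0.26), and Spry4 and Etv5 were 0.078 and 0.060 in gRNA libraries alone. Of the 10 genes, 2 were called lower in batch 2 in gRNA libraries alone (26.4% of 17322 genes were), 1 in control libraries alone (22.7% of 16758 genes) and 0 against a minimum fold of 1.5 (19.8% of 17704 genes); called in either direction were 6730 genes in control libraries alone and 5594 against that fold, beside 10879 as reported; with 1 library left out, 3 to 4 were. No paired analysis was possible because the RNA-seq labels carry no replicate numbers. The alternatives for footprints were not run. Depth was ample for the 10 genes, with 168 counts or more in every library.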
